A study of Mus musculus with 12 samples.

Results

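Hprt and 9 further enzymes of purine metabolism were followed through RNA-seq libraries of mouse cortex. They are Aprt, Adk, Ada, Gda, Impdh1, Impdh2, Ppat, Gart and Prps1, 10 genes among the 27179 in the deposited count table, taken by symbol. The set was chosen by the measured Hprt level, which was known from these counts to be low in MUT alone, so Hprt is described here without a test. The question asked of the other 9 is whether they follow it. All 10 passed the filter on low counts, which kept 15298 genes, though Ada passed narrowly.

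The 12 libraries form 3 groups of 4. MUT animals were Grn-/-;GRNmEx5, which lack mouse progranulin in a line humanized with a mutant GRN allele, and were 272 to 309 days old. KO animals were Grn-/- without that allele, aged 282 to 308 days. WT animals were Grn+/+, and were 287 days old in replicate 1 and 375 days old in the other 3. Loss of mouse Grn is thus shared by MUT and KO, and the humanized allele marks MUT alone. The labels do not give the promoter or insertion site of GRNmEx5. The 4 MUT libraries differ in age and so come from different animals. The labels do not tell if libraries of the same age and labelled sex do (WT replicates 2 to 4, KO replicates 3 and 4). The p values below rest on library-to-library spread, part of which may therefore be technical.

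Cells obtain purine nucleotides by building the ring from small precursors (de novo synthesis) or by reattaching free bases and nucleosides to ribose phosphate (salvage). Both routes draw on phosphoribosyl pyrophosphate (PRPP), and the adult brain relies heavily on salvage. Hprt, the X-linked hypoxanthine-guanine phosphoribosyltransferase, salvages hypoxanthine and guanine, and its inherited loss in humans causes Lesch-Nyhan disease.

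The sequences around the start sites of the genes the comparison turns on are given first, because gene-level counts show how much transcript was present and not where it began. Each is a RefSeq window on GRCm38.p6, the assembly of the mm10 files, running from 250 bases before the start to 50 after it on the gene's strand. Hprt is low in MUT, Aprt is the other purine phosphoribosyltransferase, and Prps1 is the other X-linked gene of the set. Capitals mark the GC box GGGCGG or its reverse complement CCGCCC, with overlapping matches each counted.
Hprt (chrX:52987828-52988127, plus strand): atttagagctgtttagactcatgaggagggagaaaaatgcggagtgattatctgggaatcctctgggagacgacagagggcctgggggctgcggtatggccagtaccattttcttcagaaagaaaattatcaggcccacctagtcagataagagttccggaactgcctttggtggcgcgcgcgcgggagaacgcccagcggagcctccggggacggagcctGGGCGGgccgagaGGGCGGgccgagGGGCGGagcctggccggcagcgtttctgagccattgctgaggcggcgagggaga
Aprt (chr8:122576858-122577157, minus strand): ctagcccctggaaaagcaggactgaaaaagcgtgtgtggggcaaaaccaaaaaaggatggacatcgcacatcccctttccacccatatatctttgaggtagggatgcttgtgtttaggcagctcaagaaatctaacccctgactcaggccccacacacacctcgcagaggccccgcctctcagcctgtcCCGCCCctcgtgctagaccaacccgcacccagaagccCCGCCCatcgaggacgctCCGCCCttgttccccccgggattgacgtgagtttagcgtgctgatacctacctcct
Prps1 (chrX:140456353-140456652, plus strand): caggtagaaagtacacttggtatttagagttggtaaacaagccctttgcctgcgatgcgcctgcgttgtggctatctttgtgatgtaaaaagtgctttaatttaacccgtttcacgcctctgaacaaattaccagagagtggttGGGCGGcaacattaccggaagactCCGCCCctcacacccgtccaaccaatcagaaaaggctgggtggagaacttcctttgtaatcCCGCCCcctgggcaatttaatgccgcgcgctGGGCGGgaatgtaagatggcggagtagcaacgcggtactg

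The Hprt window held 3 GC boxes, as did that of Aprt, and the Prps1 window held 4. Of 32851 RefSeq windows of the same length, 35.7% held at least 1 GC box and 10.7% at least 3. Neither the E-box CACGTG (7.15% of windows) nor the TATA box TATAAA (13.6%), searched on both strands, was found in these 3 windows. G and C made up 61.0% of the Hprt window, 57.7% of the Aprt window and 51.3% of the Prps1 window, against a median of 52.7%. Windows were found for all 10 genes, and those not printed were not all alike. That of Gda held 0 GC boxes, and that of Impdh2 held 1, with 1 E-box and 1 TATA box. The CCAAT box (37.4% of windows) had 1 match in the Prps1 window and 0 in those of Hprt and Aprt. These matches describe the letters only.

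Library totals ran from 16381221 to 20782195 counts. Grn checked the labels, at 11.5 to 15.3 CPM (reads scaled for depth after TMM normalization) in MUT, 10.8 to 14.0 in KO and 57.0 to 59.9 in WT. The sex labels went against the transcripts of all 12 libraries. Xist gave 1 to 19 reads in the 6 libraries labelled female and 9390 to 12900 in the 6 labelled male, and Ddx3y 1156 to 1654 and 0 to 4. Markers of cortical excitatory neurons were all detected, with summed levels of 4232 to 5296 CPM in MUT, 4522 to 5211 in KO and 5079 to 6344 in WT. Other tissue was uneven. The summed level of 14 striatal markers was 659 to 859 CPM in MUT, 751 to 932 in KO and 816 to 3239 in WT, and 10 choroid plexus markers ran from 237 to 2242, 242 to 2850 and 264 to 1219 CPM in the same order. The choroid plexus level was high in MUT replicate 1, KO replicate 3 and WT replicate 4, and the striatal level in WT replicates 2 to 4.

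Hprt (Entrez 15452; chromosome X, 52988078 to 53021660, plus strand, 9 exons, 1349 exonic bases) was far lower in MUT than in KO or WT, with KO and WT overlapping. Its 4 MUT libraries measured 14.2, 13.8, 11.6 and 17.0 CPM in replicate order, the KO libraries 133, 136, 131 and 120 CPM, and the WT libraries 125, 127, 132 and 123 CPM. Every MUT library lay far below every other library, and the KO and WT libraries overlapped. The mean was 14.2 ± 2.21 CPM in MUT, 130.02 ± 6.81 in KO and 127 ± 3.91 in WT (SD, n = 4 each). The fitted log2 difference was -3.18 for MUT against WT (SE 0.09), -3.21 for MUT against KO (SE 0.09) and 0.03 for KO against WT (SE 0.08, 95% interval -0.14 to 0.19). MUT thus held 11.1% of the WT mean and 10.9% of the KO mean.

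The residual Hprt signal in MUT was not zero. It came to 203 to 294 counts per library and 1038 in all, against 9638 in KO and 9315 in WT. The MUT libraries spread more in relative terms, with a coefficient of variation of 15.6%, against 5.24% in KO and 3.08% in WT. Counting error alone would give 6.21%, 2.04% and 2.07%. The table sums reads over all exons, so a lower number of whole transcripts and reads from only part of the gene cannot be told apart, nor, in bulk tissue, can fewer expressing cells and less RNA per cell.

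Because Hprt is X-linked, its level was set beside the sex labels. Among libraries labelled female, which carried Ddx3y, Hprt was 13.8 to 17.0 CPM in 3 MUT libraries, 120 to 131 in 2 KO libraries and 125 in 1 WT library. Among those labelled male, which carried Xist, it was 11.6 CPM in 1 MUT library, 133 to 136 in 2 KO libraries and 123 to 132 in 3 WT libraries. Hprt was low in the MUT libraries of either label. Within WT, replicate 1, the library low in striatal markers, was at 125 CPM and the 3 high ones at 123 to 132. Without the 3 libraries high in choroid plexus markers the log2 difference was -3.18 for MUT against WT and -3.20 for MUT against KO.

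**Figure D1:**
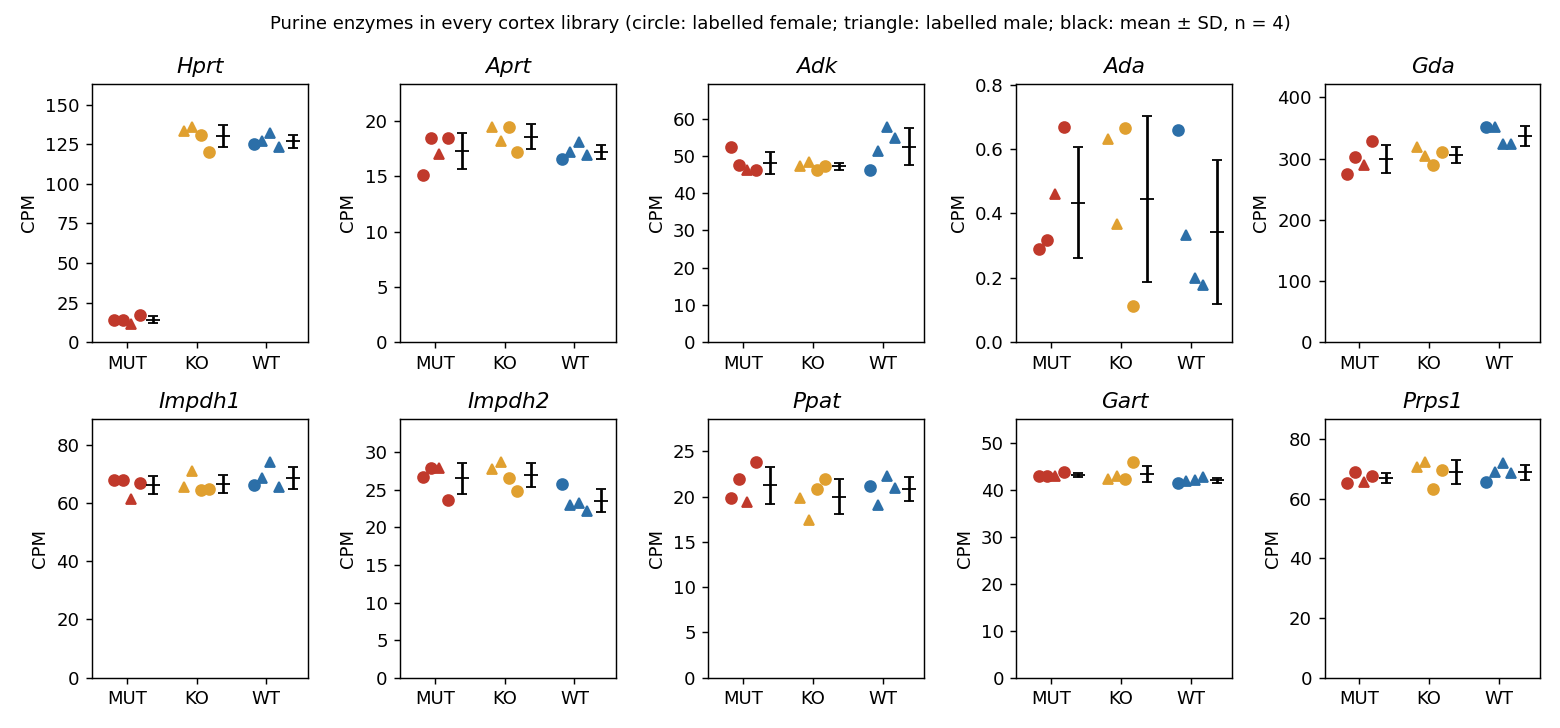
CPM of the 10 enzymes (vertical axes, each from 0) in every library, by group, with mean ± SD (n = 4) in black; circles are libraries labelled female and triangles those labelled male. Hprt sits at 11.6 to 17.0 CPM in MUT and at 120 CPM or more in every KO and WT library, while the MUT and WT libraries of the other enzymes overlap or, for Gart, lie next to each other.

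None of the other 9 enzymes followed Hprt past the threshold in any comparison. At an adjusted p of 0.05 (edgeR quasi-likelihood, Benjamini-Hochberg over all 15298 genes), 0 of 9 were called in MUT against WT, where 0.0131% of tested genes were called. In MUT against KO 0 of 9 were called, against 0.00654% of tested genes, and in KO against WT 0 of 9, against 0.49%. The called genes in the MUT comparisons were Grn and Hprt against WT and Hprt alone against KO, and nothing is read from these counts for Hprt, which chose the set. At an unadjusted p below 0.05 the 9 held 2, 0 and 2 genes in the same order (Gda and Impdh2 in both comparisons with WT), or 22.2%, 0% and 22.2%, where all tested genes gave 10.9%, 5.67% and 17.6%. limma-voom called 0 of 9 in each comparison. DESeq2 called 0 in each as well, but gave an adjusted p to only 3 of the 9 in MUT against WT, to 9 in MUT against KO and to 8 in KO against WT. The median log2 difference of the 9 was -0.010, -0.017 and 0.018, beside medians of 0.0036, -0.0040 and 0.0047 over all tested genes.

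The genes nearest to Hprt in the pathway were those of base salvage. Aprt, which salvages adenine to AMP (chromosome 8, 122574637 to 122576907), measured 15.1, 18.5, 17.0 and 18.5 CPM in MUT, 19.5, 18.2, 19.5 and 17.2 in KO, and 16.6, 17.2, 18.1 and 16.9 in WT. The groups overlapped throughout. The log2 difference was 0.02 for MUT against WT (SE 0.09, 95% interval -0.17 to 0.21, adjusted p = 0.948) and -0.10 for MUT against KO (SE 0.08, interval -0.27 to 0.07, adjusted p = 0.987). These intervals allow an Aprt level in MUT between 89.2% and 115% of WT, and between 82.8% and 105% of KO.

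PRPP, the sugar donor of Hprt and Aprt, is made by Prps1 (chromosome X, 140456603 to 140476140). Prps1 measured 65.3, 69.1, 65.7 and 67.5 CPM in MUT, 70.8, 72.3, 63.2 and 69.6 in KO, and 65.8, 69.0, 71.9 and 68.6 in WT. Its level was among the best determined of the set. The interval for MUT against WT spans 92.0% to 107% (log2 difference -0.01, SE 0.05, adjusted p = 0.955) and that for MUT against KO 91.4% to 105% (-0.03, SE 0.05, adjusted p = 0.995). No difference in Prps1 passed the threshold.

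Gda, guanine deaminase, removes guanine as xanthine and so competes with Hprt for its substrate. It measured 274, 303, 290 and 328 CPM in MUT, 319, 305, 289 and 311 in KO, and 351, 352, 323 and 324 in WT. Both Grn-null groups had lower means than WT, 299 ± 23.1 in MUT and 306 ± 12.3 in KO against 338 ± 16.1 CPM (SD, n = 4 each). The log2 difference was -0.18 for MUT against WT (SE 0.06, 95% interval -0.32 to -0.05, adjusted p = 0.397) and -0.15 for KO against WT (SE 0.06, interval -0.28 to -0.02, adjusted p = 0.234). Neither passed. MUT and KO share the WT libraries, and MUT against KO gave -0.04 (SE 0.06, adjusted p = 0.989).

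Impdh2 and Impdh1 encode IMP dehydrogenase, which commits IMP, a product of Hprt, to guanine nucleotides. Impdh2 measured 26.7, 27.9, 27.9 and 23.6 CPM in MUT, 27.8, 28.7, 26.6 and 24.9 in KO, and 25.8, 23.0, 23.3 and 22.2 in WT. It was 0.19 above WT on the log2 scale in MUT (SE 0.08, interval 0.02 to 0.36, adjusted p = 0.434) and 0.20 in KO (SE 0.07, interval 0.04 to 0.36, adjusted p = 0.183), and neither passed. Whether Impdh2 was called depended on WT replicate 1, the youngest WT library and the only one labelled female or low in striatal markers. These traits go together within WT and cannot be told apart. Without WT replicate 1 Impdh2 was called in both, at 0.31 in MUT (adjusted p = 0.0403) and 0.30 in KO (adjusted p = 0.0214), while 1030 and 1620 genes in all were then called. With age as a term the difference was 0.0045 in MUT and -0.016 in KO, and among animals under 310 days, where WT replicate 1 is the only WT library, 0.012 and 0.0056. Among libraries labelled female, again with 1 WT library, it was 0.019 and -0.0023. With the striatal level as a term the difference from WT was 0.098 in MUT. Over the 25 alternatives that gave MUT an adjusted p it ran from 0.0403 to 0.997, and over the 26 for KO from 0.0214 to 0.996. MUT and KO did not separate (-0.02, SE 0.07, adjusted p = 0.997). Impdh1 measured 61.5 to 68.0 CPM in MUT, 64.4 to 71.0 in KO and 65.6 to 74.1 in WT, with a log2 difference of -0.05 for MUT against WT (SE 0.06, adjusted p = 0.793).

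**Figure D2:**
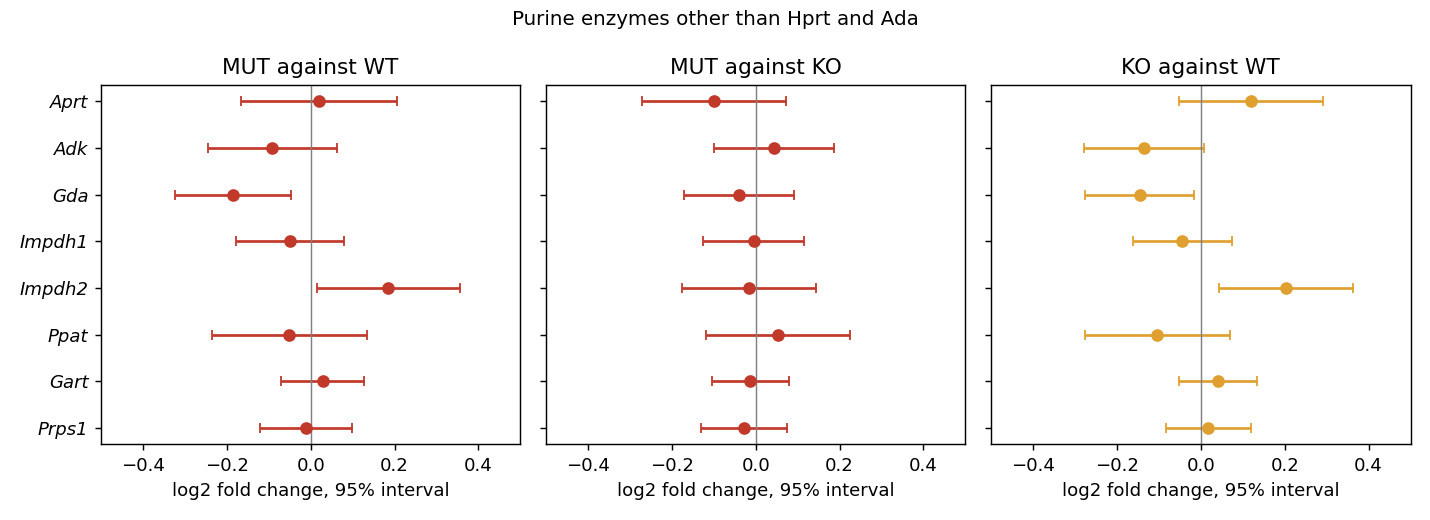
Log2 fold change with its 95% interval (edgeR, horizontal axes) for 8 enzymes in the 3 comparisons, each titled with the group on top first; Ada, with intervals beyond the axis, and Hprt are left out. All intervals for MUT against KO cover 0, and against WT those of Gda and Impdh2 do not, without passing the adjusted threshold.

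Adenosine is handled by Adk, the kinase that returns it to AMP, and by Ada, the deaminase that turns it into inosine. Adk measured 52.5, 47.6, 46.2 and 46.3 CPM in MUT, 47.3, 48.4, 46.1 and 47.2 in KO, and 46.3, 51.2, 57.8 and 54.7 in WT. The 3 WT libraries of 375 days, which were also high in striatal markers, held more Adk than WT replicate 1. The log2 difference was -0.09 for MUT against WT (SE 0.07, adjusted p = 0.657) and -0.14 for KO against WT (SE 0.07, adjusted p = 0.311), and it turned to 0.059 and 0.034 among animals under 310 days, where WT replicate 1 is the only WT library. Ada was close to the detection limit, with 6 to 11 counts per library in MUT, 2 to 12 in KO and 3 to 12 in WT. Only a large change in Ada would have been detectable at this depth, since the interval for MUT against WT ran from 47.9% to 274%.

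De novo synthesis is opened by Ppat, the PRPP amidotransferase, and continued by Gart, a multifunctional enzyme of the early steps. Ppat measured 19.8, 21.9, 19.4 and 23.8 CPM in MUT, 19.8, 17.4, 20.8 and 21.9 in KO, and 21.2, 19.1, 22.3 and 20.9 in WT. Gart measured 43.1, 43.1, 43.0 and 43.8 CPM in MUT, 42.3, 43.1, 42.5 and 46.0 in KO, and 41.6, 42.0, 42.1 and 42.9 in WT. The lowest MUT library of Gart (43.0 CPM) lay just above the highest WT library (42.9 CPM), and the log2 difference of 0.03 was below its error (SE 0.05, interval -0.07 to 0.13, adjusted p = 0.848). Ppat differed by -0.05 from WT in MUT (SE 0.09, adjusted p = 0.855) and by 0.05 from KO (SE 0.08, adjusted p = 0.989). The 95% intervals allow a Gart level in MUT between 95.2% and 109% of WT, and a Ppat level between 84.9% and 110%. Ppat shares 168 exonic bases with Paics and Gart 470 with Gm15964, both on the opposite strand. Their counts carry some uncertainty, as no source used here says how strand was treated in counting.

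Of the 9 enzymes, 1 (Gart) had MUT libraries that did not overlap those of WT, where 7.09% of tested genes did so in either direction, and 0 did so for MUT against KO, where 5.22% of tested genes did. For KO against WT it was 1 (Gda, lower), against 9.11%.

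**Figure D3:**
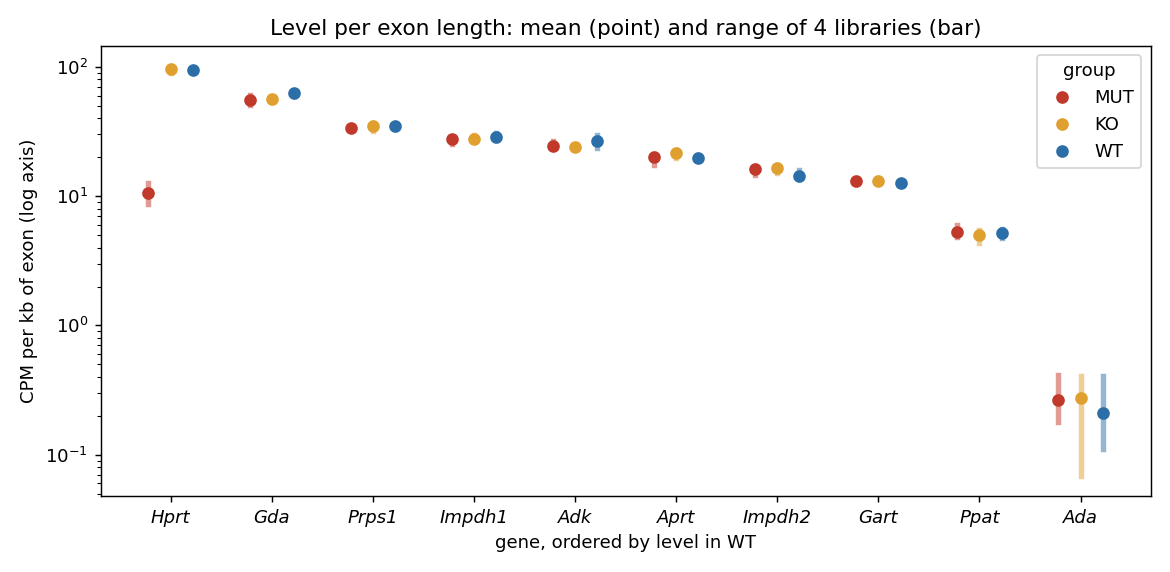
Level of each enzyme in CPM per kb of exon (log axis) in the 3 groups, as the mean (point) and the range of 4 libraries (bar), ordered by the WT level. Hprt leads in KO and WT at 96.4 and 94.2 CPM per kb and stands at 10.5 in MUT, between Gart and Ppat.

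Scaled to exon length, the enzymes could be ranked against each other. Exons shared with opposite-strand genes leave the levels of Hprt, Ppat and Gart less certain. Hprt led the set with 96.4 ± 5.05 CPM per kb in KO and 94.2 ± 2.90 in WT, ahead of Gda at 56.5 ± 2.28 and 62.3 ± 2.98. In MUT it stood at 10.5 ± 1.64 CPM per kb, in the eighth place, below Gart (13.0 ± 0.103) and above Ppat (5.30 ± 0.514). The order of the other 9 was the same in all 3 groups: Gda, Prps1, Impdh1, Adk, Aprt, Impdh2, Gart, Ppat and Ada. In WT, Impdh1 (27.3 to 30.8 CPM per kb) and Adk (23.7 to 29.6) overlapped, and no other neighbours in that order did.

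The wider purine pathway was covered by 4 lists of 69 genes, of which 60 were tested. edgeR called 0 of the 60 in MUT against WT, 0 in MUT against KO and 0 in KO against WT. At an unadjusted p below 0.05 there were 3, 2 and 8, or 5%, 3.33% and 13.3%, where all tested genes gave 10.9%, 5.67% and 17.6%. limma-voom called 0 in each comparison, and DESeq2 called 0, 0 and 2 of 11, 60 and 56 genes with an adjusted p (Adora2a and Gmps, in KO against WT). Over all tested genes DESeq2 called 49, 15 and 647 of the 4323, 15285 and 13804 with an adjusted p. The rest of the de novo list, 11 tested genes with Paics, Pfas, Atic and Gmps among them, had median log2 differences of -0.03, -0.04 and 0.02 in these comparisons. Salvage and catabolism, 19 tested genes that include Pnp, the purine nucleoside phosphorylase that supplies hypoxanthine, had medians of 0.01, 0.07 and -0.04. The 14 nucleotide kinases had medians of 0.02, -0.03 and 0.02. Adenosine receptors, transporters and ectonucleotidases, 16 tested genes, had medians of 0.05, -0.01 and -0.02.

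Gmps, the GMP synthetase that completes guanine nucleotide synthesis after Impdh, was the de novo gene closest to a call. It measured 36.8 to 40.6 CPM in MUT, 30.8 to 34.7 in KO and 35.0 to 48.0 in WT. The log2 difference was -0.07 for MUT against WT (SE 0.09, edgeR adjusted p = 0.785), 0.26 for MUT against KO (SE 0.08, adjusted p = 0.725) and -0.33 for KO against WT (SE 0.08, edgeR adjusted p = 0.0811). Adora2a, the adenosine receptor of striatal projection neurons, had the largest difference from WT in the 4 lists, at 2.49 to 3.44 CPM in MUT, 2.12 to 6.76 in KO and 1.98, 16.3, 34.9 and 74.5 in WT. The 3 high WT libraries are those high in striatal markers, a list that itself includes Adora2a, and WT replicate 1 lay below every MUT library. Both genes were singled out after their values were seen.

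**Figure D4:**
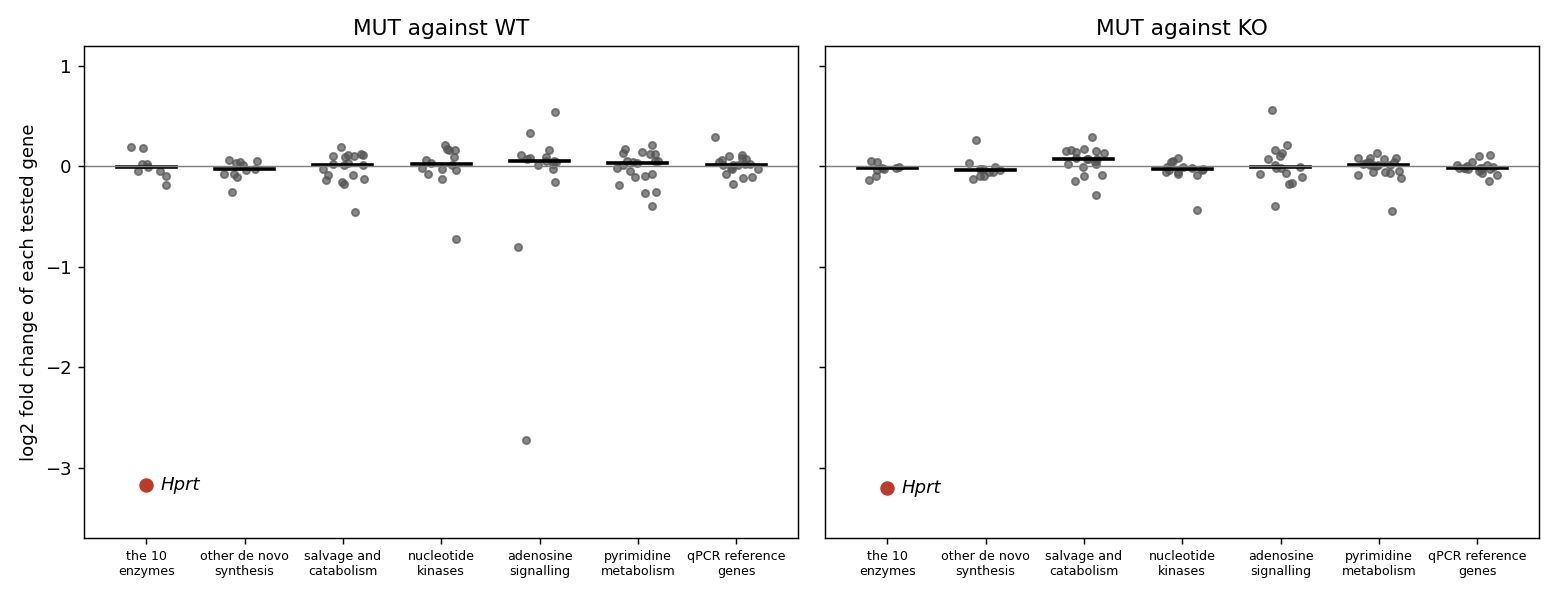
Log2 fold change of each tested gene (points) and list medians (black bars; Hprt left out of the first) for the 10 enzymes, 4 purine lists, pyrimidine metabolism and qPCR reference genes, in MUT against WT and MUT against KO. Hprt (red) lies at -3.18 and -3.21; the lowest other point against WT is Adora2a at -2.72, which stands at -0.17 against KO.

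The low Hprt level was also set beside its neighbours on the X chromosome. The start of a gene is here its lowest exon coordinate, whichever strand it lies on. Of 39 other genes with a start within 1 Mb of that of Hprt, 11 were tested, and edgeR and limma-voom called 0 of them in every comparison, as did DESeq2 among the 1, 11 and 9 with an adjusted p (edgeR unadjusted p below 0.05: 0 in MUT against WT, 1 in MUT against KO, 0 in KO against WT, beside 10.9%, 5.67% and 17.6% of all tested genes). Phf6, the nearest tested gene, begins 75812 bases upstream and measured 29.2 CPM in MUT, 29.2 in KO and 29.4 in WT. On the other side Fam122b, 255337 bases downstream, measured 6.36, 6.48 and 7.36 CPM, and Mospd1, 356943 bases downstream, 9.46, 9.95 and 8.98 CPM. Over the 11 genes the log2 difference ran from -0.30 to 0.31 for MUT against WT and from -0.21 to 0.30 for MUT against KO. The lowest adjusted p was 0.553 and 0.878. The gene with an edgeR unadjusted p below 0.05 in MUT against KO was Rtl8b, at -0.14 (SE 0.06, adjusted p = 0.878). Rtl8b measured 35.2 CPM in MUT, 38.5 in KO and 36.4 in WT. Among the 535 tested genes of the X chromosome no gene other than Hprt, whose low level chose the set, was called by edgeR in either MUT comparison. Over all tested genes edgeR called 0.0131% in MUT against WT and 0.00654% in MUT against KO. With so few calls the count says little about the X chromosome.

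**Figure D5:**
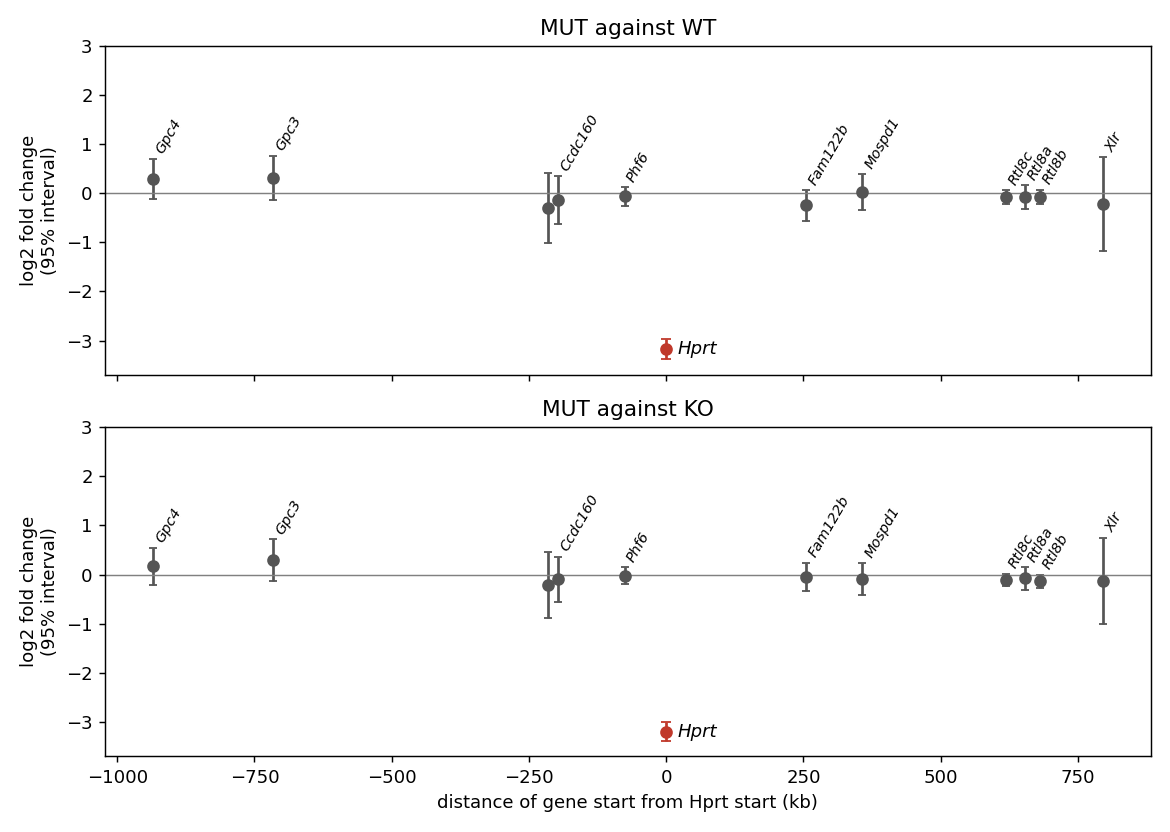
Log2 fold change with its 95% interval (edgeR) for Hprt (red) and the 11 tested genes whose start lies within 1000 kb, against distance from the Hprt start in kb (horizontal axis; negative is upstream), for MUT against WT (top) and MUT against KO (bottom). The neighbours lie between -0.30 and 0.31, with Hprt at -3.18 and -3.21. A start is the lowest exon coordinate on either strand.

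The genes whose level followed Hprt most closely over the 12 libraries were Sec22a, Mir3960, Zfp119b, Dcaf12l1 and Cox6a1, with Pearson r of 0.94, 0.91, 0.91, 0.89 and 0.86 on log2 CPM. These r values describe 12 points that share the gap between the 4 MUT libraries and the other 8. Their own differences were small beside that of Hprt. The largest was that of Zfp119b, with a log2 difference of -0.35 for MUT against WT (SE 0.16) and -0.48 for MUT against KO (SE 0.15). Sec22a, a vesicle trafficking protein, measured 10.5 ± 0.502 CPM in MUT, 12.3 ± 0.266 in KO and 12.1 ± 0.247 in WT (SD, n = 4 each). Cox6a1, a subunit of cytochrome c oxidase, measured 172 ± 7.13, 189 ± 4.50 and 190 ± 4.39 CPM. Dcaf12l1, which is also X-linked, measured 57.9 ± 1.12, 64.8 ± 3.27 and 66.0 ± 1.10 CPM in the same order. Among the purine enzymes r was highest for Gda (0.50, rank 862 of the tested genes) and lowest for Impdh2 (-0.29).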

How the data were processed

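RNA was taken from mouse cortex and made into strand-preserving libraries (NEBNext Ultra II Directional), as the labels' protocols state. The authors deposited raw read counts per gene for 12 libraries, in the column layout that featureCounts writes, with summed exon length, per the file headers. Of tools and builds, mm10, R 4.1.2 and DESeq2 1.34.0 appear in the submitters' processing notes. Aligner, counter and strand treatment: not given in the sources used here.

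Genes were kept with filterByExpr by group (minimum count 10, minimum total 15), which puts the floor at 0.546 CPM. TMM-scaled counts of all 12 libraries were fitted in edgeR 4.0.16 (R 4.3.3) by robust quasi-likelihood with group means and labelled sex (8 residual degrees of freedom), with Benjamini-Hochberg adjustment and a threshold of 0.05. Intervals are 95%. Log2 CPM used a prior count of 2. Alternatives were RLE scaling, 2 other filters, DESeq2 1.42.0, limma-voom (limma 3.58.1), other covariates, subsets and each library left out. A non-robust fit was added after the data were seen. The fits were tested on simulated data. Same-numbered libraries of different groups deviated together with r of -0.38 to 0.29, and the main fit did not pair them. Uneven striatal and choroid plexus tissue also enters these r values, so they cannot exclude a pairing. Each of 66 library pairs differed beyond sampling noise (chi-square over its degrees of freedom at least 3.62). The rule for named genes took the 10 enzymes, list members past the threshold (there were none), the 5 genes most like Hprt, tested genes within 1 Mb of it, and Grn, Xist and Ddx3y as checks. Other list members were named outside it, as examples or after their values were seen. Members and lists were chosen with earlier results of these data known. Intervals and counts cover no error from unrecorded processing steps.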

Additional observations from a re-analysis of the deposited data

How the results depend on the processing

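Hprt kept its direction and size under all 26 alternatives in each MUT comparison, and moved by less than the spread between libraries. DESeq2 left the adjusted p of 6 members undefined in MUT against WT and of 1 (Ada) in KO against WT, and Ada was removed by the stricter filter and where only 2 groups were fitted. Members called other than Hprt stayed at 0 except without WT replicate 1, where 1 (Impdh2) was called in MUT against WT and in KO against WT, so that leaving out a library gave 0 to 1. The count over all genes was far less steady. The subsets under 310 days and labelled female leave WT replicate 1 as the only WT library, which is then assumed to vary like the other groups, so their counts against WT are not comparable with the full design. In KO against WT it was 75, and became 647 with DESeq2, 294 with no sex term, 11 under 310 days, 3 with only the 2 groups compared, and 2 with age as a term, with the striatal level, among libraries labelled female and without the 3 libraries high in choroid plexus markers. In MUT against WT it was 2, and became 49 with DESeq2 and 6 with no sex term. In MUT against KO it was 1, and became 15 with DESeq2, 2 with age as a term, 37 under 310 days and 39 with only the 2 groups compared. Leaving out single libraries gave 1 to 1620, 2 to 1030 and 1 to 18 in the same order. In KO against WT it gave 1620 without WT replicate 1, 170 without WT 3, 11, 5 and 1 without MUT 2, 3 and 4, 1 without WT 2, WT 4 or KO 1, 2 without KO 2 and 4 without KO 3. In MUT against WT 1030 came without WT 1, and in MUT against KO 18, 5 and 2 came without WT 3, WT 1 and KO 2. With the replicate block, 2 genes were called in KO against WT, 2 in MUT against WT and 1 in MUT against KO, and 2 of 12 libraries correlated best with their own number. The cause of these shifts was not tested.

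No value with a changed sign was called, and such values lie near 0 except for Ada, which rests on few counts. Impdh2 in KO against WT changed sign in some settings and was called, as higher, without WT replicate 1. In MUT against WT the turned log2 values were 0.022 (no sex term) for Ppat; 0.039, -0.49 and 0.062 (age) for Adk, Ada and Ppat; -0.30 and 0.022 (striatal level) for Ada and Ppat; 0.076, -0.66, 0.028, 0.039 and 0.034 (labelled female) for Adk, Ada, Impdh1, Ppat and Prps1; and 0.059, -0.69, 0.042 and 0.013 (under 310 days) for Adk, Ada, Ppat and Prps1. In MUT against KO they were 0.11 (limma-voom) for Ada, 0.027 and 0.021 (age) for Ada and Impdh2, 0.095, 0.0068, 0.066, 0.021 and 0.019 (labelled female) for Ada, Gda, Impdh1, Impdh2 and Prps1, 0.013 and 0.0063 (under 310 days) for Ada and Impdh2, -0.0031 and 0.33 (without the choroid plexus libraries) for Adk and Ada, and 0.0049 (only the 2 groups) for Impdh2. In KO against WT they were 0.022, -0.52, -0.016 and 0.031 (age) for Adk, Ada, Impdh2 and Ppat, -0.15 (striatal level) for Ada, 0.010, -0.75, -0.0023 and 0.0087 (labelled female) for Adk, Ada, Impdh2 and Ppat, 0.034, -0.70, 0.0081 and 0.0011 (under 310 days) for Adk, Ada, Impdh1 and Ppat, and -0.061 (without the choroid plexus libraries) for Ada. Leaving out single libraries gave, in MUT against WT, -0.010 to 0.069 for Aprt, -0.015 to 1.03 for Ada, -0.078 to 0.033 for Impdh1 and -0.027 to 0.042 for Prps1. In MUT against KO it gave -0.0024 to 0.11 for Adk, -0.61 to 0.15 for Ada, -0.024 to 0.062 for Impdh1, -0.063 to 0.028 for Impdh2, -0.032 to 0.022 for Gart and -0.072 to 0.015 for Prps1. In KO against WT it gave -0.018 to 1.01 for Ada and -0.0011 to 0.047 for Prps1.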

Other observations

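Hprt is a common reference gene for quantitative PCR, so 19 other reference genes were read in the same fit. edgeR called 0 of the 19 in every comparison (2, 1 and 4 at an unadjusted p below 0.05 in MUT against WT, MUT against KO and KO against WT, or 10.5%, 5.26% and 21.1%, beside 10.9%, 5.67% and 17.6% of all tested genes), limma-voom called 0, and DESeq2 called 0, 0 and 2 of 14, 19 and 19 with an adjusted p (Eef1a1 and Rpl13a in KO against WT, where DESeq2 called 647 of all 13804 genes with an adjusted p). Their log2 differences ran from -0.17 to 0.29 in MUT against WT and from -0.15 to 0.11 in MUT against KO, beside -3.18 and -3.21 for Hprt. Gapdh measured 523 CPM in MUT, 534 in KO and 520 in WT, and Pgk1, which is also X-linked, 92.8, 94.9 and 95.3 CPM.

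Pyrimidine metabolism, the counterpart of the purine pathway, had 21 tested genes with median log2 differences of 0.04, 0.01 and 0.03 in MUT against WT, MUT against KO and KO against WT. edgeR and limma-voom called 0 of them in each, and DESeq2 0 of the 1, 21 and 19 with an adjusted p (edgeR unadjusted p below 0.05: 2, 0 and 3, or 9.52%, 0% and 14.3%, beside 10.9%, 5.67% and 17.6% of all tested genes).

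A gene with no symbol in the table (Entrez 100861729, chromosome X, 53021069 to 53033074, minus strand) shares 592 exonic bases with the last part of Hprt on the opposite strand. Its reads summed to 1 in MUT, 16 in KO and 15 in WT, with 4 libraries in each group. As a ratio to Hprt reads this was 0.0963% in MUT, 0.166% in KO and 0.161% in WT. The exact 95% binomial intervals were 0.00244% to 0.536%, 0.0949% to 0.269% and 0.0902% to 0.265% in the same order. They rest on reads summed over libraries and cover counting error only, while single KO libraries held 1 to 7 reads. The gene was below the count filter and was not tested, and it was noticed after its values were seen. Through this overlap the Hprt counts, like those of Ppat and Gart, carry an uncertainty over strand treatment. The overlap covers more of Hprt, at 592 of 1349 exonic bases, against 168 of 4008 for Ppat and 470 of 3329 for Gart.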
